A study of Mus musculus with 4 samples.

Results

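The 8 genes described here encode secreted antagonists of bone morphogenetic proteins (BMPs) and activins, namely Grem1, Nog, Chrd, Chrdl1, Bmper, Fst, Fstl3, and Fstl1. They were taken by name from a table of 20027 genes, and all 8 were in it. The table came from RNA-Seq of Sca1+ CD31- CD45- Vcam1- cells of mouse hind limb muscle, a gate for fibroadipogenic progenitors (FAPs), which are fibroblast-like mesenchymal cells between the myofibers. RNA was taken from these cells without culture, to ask how loss of Bap1, a nuclear deubiquitinase, in limb mesenchyme changes their transcripts. There were 2 libraries labelled cKO, titled as Prx1-Cre;Bap1f/f males, and 2 libraries labelled WT, titled as Prx1-Cre males, all of the C57BL/6 strain and, per the study, in the second week of life. The Prx1-Cre transgene acts in limb bud mesenchyme, which also gives rise to cartilage, bone, and tendon. The study describes its controls as Bap1 fl/fl mice without Cre, so the genotype of the WT libraries is unclear. Each title gives its own numbered male, and the libraries were treated as separate animals.

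BMPs and activins are secreted ligands of the TGF-β superfamily that bind pairs of type I and type II serine/threonine kinase receptors on the cell surface. BMP receptors phosphorylate one set of Smad transcription factors and activin receptors another, and both sets share Smad4. Antagonists of these ligands are secreted proteins that hold a ligand away from its receptors, and in limbs and muscle they are known for shaping cartilage and joints, for limiting BMP signals, and, in the case of follistatin, for promoting muscle growth by binding myostatin and activins.

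The upstream sequences of 2 of these genes are shown because they belong to the called antagonists with the largest rise, Grem1, and the largest fall, Fstl3. They are the 250 bases before the start site in the RefSeq promoter table of GRCm38.p6, which held 5 of the 8 genes. The Grem1 window is chr2:113758649-113758898 on the minus strand and the Fstl3 window chr10:79777024-79777273 on the plus strand. Capitals mark GGCGCC, a palindromic GC-rich sequence known to be bound by Smads of the BMP branch, which was searched for as these letters and reads the same on both strands.
Grem1: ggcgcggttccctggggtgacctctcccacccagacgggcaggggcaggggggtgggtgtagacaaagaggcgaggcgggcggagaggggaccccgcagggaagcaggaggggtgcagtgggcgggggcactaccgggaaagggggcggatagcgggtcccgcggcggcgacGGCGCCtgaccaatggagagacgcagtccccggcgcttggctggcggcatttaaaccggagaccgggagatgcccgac
Fstl3: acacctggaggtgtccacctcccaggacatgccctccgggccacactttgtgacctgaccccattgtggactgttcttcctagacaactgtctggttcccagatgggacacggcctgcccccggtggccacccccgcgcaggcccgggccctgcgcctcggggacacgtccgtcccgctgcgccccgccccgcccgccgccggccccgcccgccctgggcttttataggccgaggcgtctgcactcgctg
The Grem1 window held the sequence once, with its first base at position -78 relative to the start, and the Fstl3 window did not hold it. Of the other windows in the table, that of Chrd held it once, at position -203, and those of Bmper and Fstl1 did not. The Fstl1 window is not printed because the start sites of the annotations used here differ, and 182 of its bases lie inside the gene as GENCODE annotates it, against 0 for Grem1 and 2 for Fstl3. Over all 32851 windows of the same length, 9.6% held it. Both windows printed were rich in G and C, at 72.0% for Grem1 and 71.2% for Fstl3, against a median of 52.4% over all windows. A match is a description of these letters and not a binding site.

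Expression is given as RPKM (reads per M reads and per kilobase of transcript), which allows levels of genes to be compared per length. The depth was estimated at about 41.4 to 90.4 M reads per library. The estimate uses the small value held by genes without reads, which was assumed to be a fixed fraction of 1 read. Bap1 itself was at 14.24 and 15.33 RPKM in the libraries labelled cKO, against 13.95 and 12.86 RPKM in those labelled WT (log2 fold change 0.13, limma adjusted p = 0.443). The value covers the whole transcript and so does not check the genotypes, and every direction here rests on the labels. Fold changes are log2 differences of RPKM + 1, cKO minus WT, which understate the change of low genes, and a gene passed at a limma adjusted p under 0.05. Genes were tested if 2 or more libraries reached 1 RPKM, which left 11197. Over these the median log2 fold change was 0.27, and 4016 genes were higher and 726 lower, so that 84.7% of calls were higher. With the libraries rescaled, that share was 51.0% by median ratio, 49.4% by quantile, and 52.4% by cyclic loess normalization. Statements on alternatives refer to those that keep the limit of 0.05, since no antagonist passed at a limit of 1e-05.

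The sorted cells also differed in markers of other cell types. All 10 chondrocyte markers passed as higher, with a summed level of 2283 and 1912 RPKM in the cKO libraries, against 26.0 and 24.4 RPKM in the WT libraries, and Col2a1, the main cartilage collagen, reached 1492 and 1294 RPKM in cKO, against 1.70 and 2.00 RPKM in WT. All 6 tenocyte markers were higher as well (sum 1641 and 1382 RPKM in cKO, against 190 and 177 RPKM in WT), as were 4 of 5 tested osteoblast markers (sum 269 and 95.7 RPKM in cKO, against 4.83 and 7.18 RPKM in WT), all 5 perineurial markers (130 and 185 RPKM, against 43.7 and 39.4 RPKM), all 4 tested Schwann cell markers (30.4 and 40.6 RPKM, against 13.6 and 15.9 RPKM), and 7 of 8 markers of smooth muscle and pericytes (333 and 440 RPKM, against 48.1 and 67.4 RPKM). Of 9 FAP markers, 7 were lower and none higher, and their sum was 6145 and 6114 RPKM in cKO, against 9134 and 8887 RPKM in WT. Both groups thus held FAP markers at high levels, while markers of myofibers, of which 5 of 6 tested were lower, summed to 23.0 and 21.4 RPKM in cKO, against 62.0 and 83.7 RPKM in WT. Genes of the cells that the gate removes were mostly low, but not all of them. Itga7, a marker of muscle stem cells, was at 29.6 and 42.3 RPKM in cKO, against 9.38 and 11.7 RPKM in WT. Tek, an endothelial marker, was at 20.7 and 11.2 RPKM in cKO, against 22.8 and 18.9 RPKM in WT. The 6 hematopoietic markers summed to 6.16 and 9.22 RPKM in cKO, against 2.45 and 4.16 RPKM in WT, with both tested genes (Cd14 and Lyz2) higher and Ptprc, which encodes CD45, at or under 0.254 RPKM in every library. The 6 endothelial markers summed to 35.0 and 33.8 RPKM in cKO, against 28.0 and 29.4 RPKM in WT, with 2 of 5 tested (Cdh5 and Esam) higher. Pecam1, which encodes CD31, was at 0.537 and 1.63 RPKM in cKO, against 1.67 and 3.12 RPKM in WT. It did not pass (log2 fold change -0.72, limma adjusted p = 0.0888), nor did Tek (-0.42) and Emcn (0.39). The 6 markers of muscle stem cells summed to 43.4 and 54.9 RPKM in cKO, against 14.4 and 18.4 RPKM in WT, with 2 of 3 tested (Chodl and Itga7) higher and Pax7, their defining marker, at or under 0.0988 RPKM in every library. Some markers entered the test only through the cKO libraries, where they were high, and so had to differ, namely 4 of chondrocytes, 3 of osteoblasts, 2 each of tenocytes and perineurial cells, and 1 of smooth muscle, as did 1 of myofibers through the WT libraries. These are bulk libraries, in which a different number of cells of a type and a different amount of RNA per cell cannot be told apart. The part that these cell types had in the changes of the antagonists was not tested.

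Among the 8 antagonists, 3 were higher in the libraries labelled cKO (Grem1, Nog, and Chrdl1), 2 were lower (Fstl1 and Fstl3), and 3 did not pass (Chrd, Bmper, and Fst). Of all tested genes, 35.9% were called higher and 6.48% lower. Under each of the 3 rescalings the counts were 1 higher and 3 lower, and on leaving out single libraries they ranged from 2 to 3 higher and from 0, without WT replicate 1, to 3 lower. The groups did not overlap in 7 of the 8, the exception being Chrd, whereas 72.3% of all tested genes had groups that did not overlap. The median log2 fold change of the 8 was 0.23, beside 0.27 for all tested genes.

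**Figure D1:**
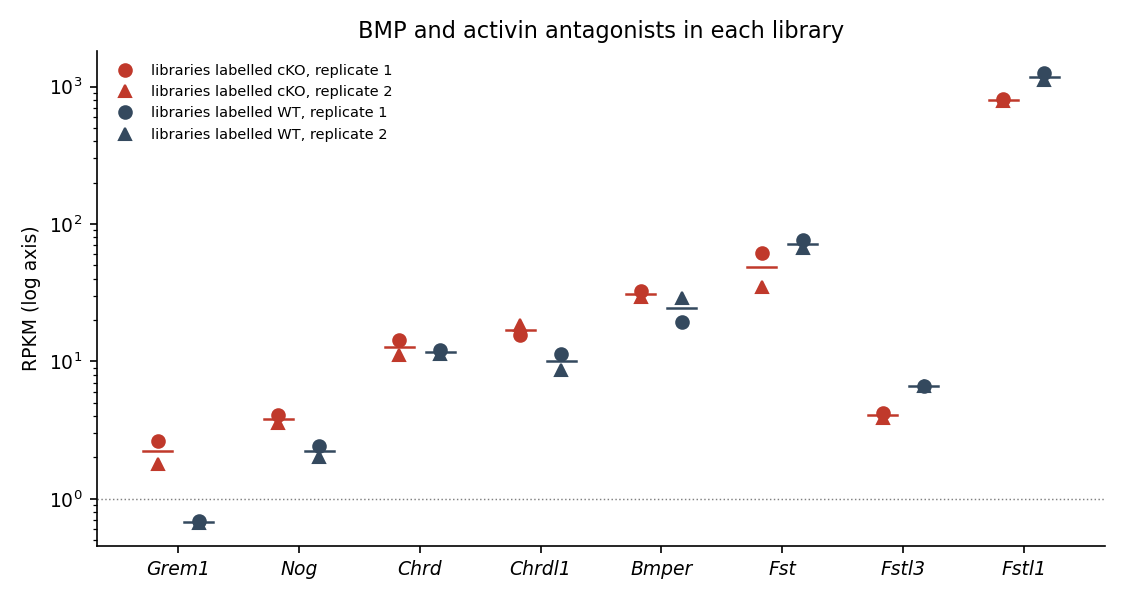
RPKM of the 8 antagonists in each library on a log axis, with the 2 libraries labelled cKO left of the 2 labelled WT for each gene. Short lines are group means and the dotted line marks 1 RPKM. Grem1 lies at 2.64 and 1.79 RPKM in the cKO libraries and under 1 RPKM in both WT libraries, and Fstl1 lies above all other antagonists in every library.

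The levels spanned a wide range. Fstl1 made up 85.8% and 88.3% of the summed RPKM of the 8 genes in the cKO libraries and 90.6% and 89.9% in the WT libraries. Below it, the order in the cKO libraries by group mean was Fst, Bmper, Chrdl1, Chrd, Fstl3, Nog, and Grem1. In the WT libraries Chrd stood before Chrdl1, and the order was otherwise the same. Some neighbours in this order did not differ beyond their spread: Fstl3 and Nog overlapped between the cKO libraries, the means of Fst and Bmper in cKO were closer than the SD of Fst there (18.9 RPKM), and Chrd and Chrdl1 overlapped between the WT libraries.

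Grem1 encodes gremlin, a cystine-knot protein that binds BMP2, BMP4, and BMP7. Its level was 2.64 and 1.79 RPKM in the cKO libraries, against 0.688 and 0.665 RPKM in the WT libraries, or about 989 and 308 reads in cKO and 133 and 246 reads in WT. Both cKO libraries lay above both WT libraries, and the gene reached 1 RPKM only in cKO. This was a log2 fold change of 0.93 (95% interval 0.51 to 1.35, limma adjusted p = 0.00631), which is 0.66 above the median gene. Because Grem1 entered the test only through the cKO libraries, it had to differ between the groups. It kept its call in each of the 14 alternatives at that limit in which it could be fitted (limma adjusted p 0.000426 to 0.0367). For Grem1 this is not separate support, because of how it entered. The gene has 2 exons and is annotated at 113746164 to 113758646 of chromosome 2 (minus strand, GRCm38).

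Nog encodes noggin, which binds BMPs and is required for joint formation. Its level was 4.09 and 3.57 RPKM in the cKO libraries, against 2.44 and 2.00 RPKM in the WT libraries, and the groups did not overlap. On the log2 scale cKO exceeded WT by 0.59 (95% interval 0.21 to 0.97, limma adjusted p = 0.0233), 0.32 above the median gene. The call ended under all 3 rescalings (log2 fold change 0.34 to 0.41, adjusted p 0.0855 to 0.126), without the filter on low values (adjusted p = 0.0888), and on leaving out cKO replicate 1 (adjusted p = 0.0512), WT replicate 1 (adjusted p = 0.0679), or WT replicate 2 (adjusted p = 0.197). Nog is an intronless gene at 89300638 to 89302332 of chromosome 11 (minus strand, GRCm38).

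Chrdl1 encodes chordin-like 1, a BMP antagonist with cysteine-rich repeats like those of chordin. Its level was 15.6 and 18.3 RPKM in the cKO libraries, against 11.4 and 8.70 RPKM in the WT libraries, with both cKO libraries above both WT libraries. The change, on the log2 scale, came to 0.71 (95% interval 0.32 to 1.09, limma adjusted p = 0.0122), 0.44 above the median gene. It too did not pass under the 3 rescalings (log2 fold change 0.36 to 0.41, adjusted p 0.126 to 0.137), nor without WT replicate 2 (adjusted p = 0.0880). The gene is annotated at 143285674 to 143394262 of chromosome X (minus strand, GRCm38), with 9 exons in the listed transcript.

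Chrd, which encodes chordin itself, did not pass and its groups overlapped. It was at 14.4 and 11.1 RPKM in the cKO libraries, against 12.1 and 11.3 RPKM in the WT libraries. One cKO library lay above and the other below both WT libraries. The log2 fold change was small, at 0.11 (95% interval -0.26 to 0.47, limma adjusted p = 0.619), and it was negative, at -0.20 to -0.24, under the 3 rescalings. Chordin and its relative stood in a ratio of 0.925 and 0.604 (Chrd over Chrdl1) in cKO and of 1.06 and 1.30 in WT, a description without a test. Chrd is annotated at 20733127 to 20742384 of chromosome 16 (plus strand, GRCm38), and 154 bases of its exons overlap those of Thpo on the opposite strand, whose reads cannot be told apart where strand was not used in counting.

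Bmper encodes a BMP-binding endothelial regulator that can hold back or promote BMP signals depending on its dose. Its level was 32.3 and 29.5 RPKM in the cKO libraries, against 19.5 and 29.1 RPKM in the WT libraries. The lower cKO library exceeded the higher WT library by less than the spread within either group. On the log2 scale the difference was 0.36 (95% interval -0.08 to 0.79, limma adjusted p = 0.160). Without WT replicate 2 it was 0.64 and passed (adjusted p = 0.0316), and it was close to 0 under the rescalings, at 0.04 by median ratio and at -0.026 and -0.011 by quantile and cyclic loess normalization. Bmper spans 15 exons at 23223076 to 23485200 of chromosome 9 (plus strand, GRCm38).

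The follistatin-domain genes stood lower in the libraries labelled cKO, and 2 of the 3 passed. Fstl1 encodes a secreted glycoprotein with a follistatin-like domain that is abundant in mesenchymal cells and has been described as binding BMP4. Its level was 817 and 782 RPKM in the cKO libraries, against 1250.5 and 1113 RPKM in the WT libraries. The lower WT library was well above both cKO libraries, and the change on the log2 scale was -0.56 (95% interval -0.91 to -0.21, limma adjusted p = 0.0205), or -0.83 relative to the median gene. It stayed negative in every alternative (-0.89 to -0.40), but did not pass without WT replicate 1 (adjusted p = 0.284), without WT replicate 2 (adjusted p = 0.137), or without the filter on low values (adjusted p = 0.116). Fstl1 is annotated at 37776873 to 37836514 of chromosome 16 (plus strand, GRCm38).

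Fstl3 encodes a follistatin relative that binds activins and myostatin. It was at 4.21 and 3.90 RPKM in the cKO libraries, against 6.66 and 6.64 RPKM in the WT libraries, and the WT replicates differed by little. On the same scale the change was -0.60 (95% interval -0.94 to -0.26, limma adjusted p = 0.0142), or -0.86 relative to the median gene, and it passed under all 3 rescalings. Without WT replicate 1 or WT replicate 2 it did not pass (adjusted p = 0.102 and 0.0963), at nearly the same fold change (-0.60 each). Fstl3 is annotated at 79777272 to 79782630 of chromosome 10 (plus strand, GRCm38), and 1157 bases of its exons overlap those of Prss57, a serine protease gene on the opposite strand. Prss57 was at 1.97 and 1.98 RPKM in cKO, against 3.12 and 3.05 RPKM in WT. Whether strand was used in counting is not given in the sources used here, so reads of the 2 genes cannot be told apart.

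Fst encodes follistatin, the high-affinity binder of activins and myostatin. Its level was 61.8 and 35.0 RPKM in the cKO libraries, against 76.8 and 66.6 RPKM in the WT libraries. Both cKO libraries were below both WT libraries, but their ratio to each other was larger than that between replicates of any other antagonist in either group. Its log2 fold change of -0.61 (95% interval -1.17 to -0.05) did not pass (limma adjusted p = 0.0778). It passed under the 3 rescalings (-0.91 to -0.93, adjusted p 0.0226 to 0.0426), without WT replicate 2 (-0.71, adjusted p = 0.0368), and without cKO replicate 1 (-1.01, adjusted p = 0.000630), whereas without cKO replicate 2 it was -0.21 (adjusted p = 0.237). The same 2 cKO libraries also differed in summed markers, in both directions. The sum was lower in cKO replicate 2 for osteoblasts (269 and 95.7 RPKM in cKO, against 4.83 and 7.18 RPKM in WT). It was also lower there for Dpp4+ FAPs (174.9 and 88.7 RPKM in cKO, against 388 and 250 RPKM in WT). It was higher in cKO replicate 2 for Cxcl14+ FAPs (811 and 1025 RPKM in cKO, against 1347 and 1465 RPKM in WT). The same held for smooth muscle and pericytes (333 and 440 RPKM in cKO, against 48.1 and 67.4 RPKM in WT). The part of these in the level of Fst was not tested. Fst is annotated at 114452290 to 114458951 of chromosome 13 (minus strand, GRCm38).

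**Figure D2:**
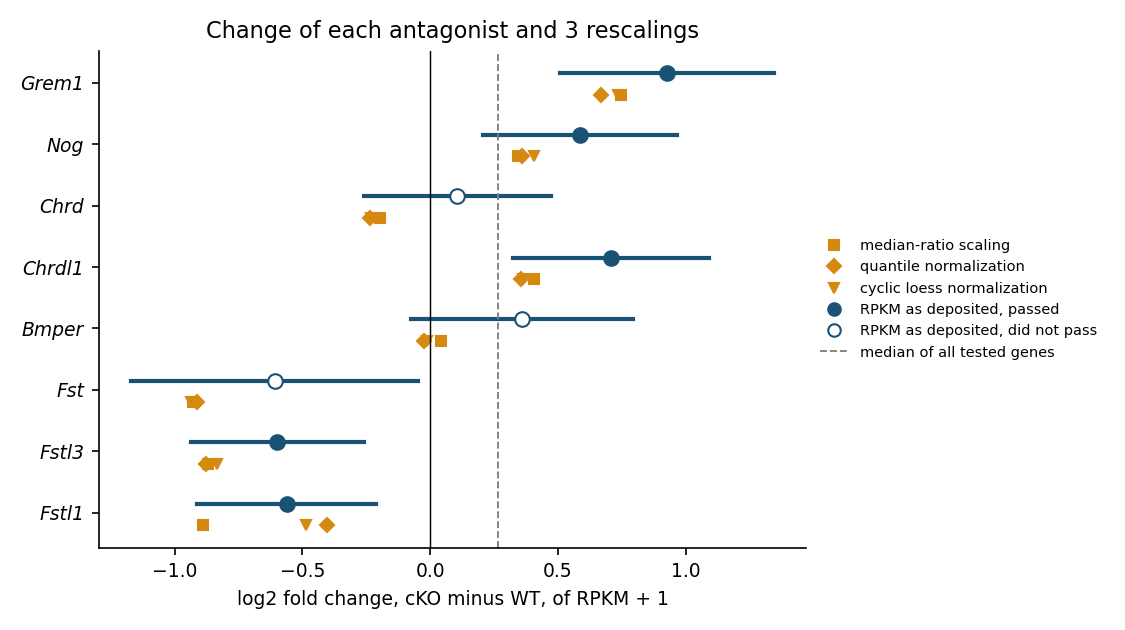
Log2 fold change (cKO minus WT, RPKM + 1) of the 8 antagonists, one per row. Blue circles with lines are the values from the deposited RPKM with 95% intervals, filled where the gene passed, orange symbols are the 3 rescalings, and the dashed line is the median of all tested genes, 0.27. Grem1 stays above 0.6 in each rescaling, Chrd moves below 0, and Fst, Fstl3, and Fstl1 stay below 0 throughout.

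Grem1 and Fstl3, the called antagonists with the largest rise and fall, were set against all other named genes by their pattern over the 4 libraries (Euclidean distance of centred log2 values). The genes nearest to Grem1 were Grb14 (1.71 and 1.14 RPKM in cKO, against 0.220 and 0.239 RPKM in WT, distance 0.0580), Atp6v0a4 (distance 0.0714), and Adamtsl3 (distance 0.0764). Near Fstl3 were Pml (2.65 and 2.43 RPKM in cKO, against 4.43 and 4.32 RPKM in WT, distance 0.0176) and Fhdc1 (distance 0.0345). Grb14 and Atp6v0a4, like Grem1, reached 1 RPKM only in the cKO libraries, so the filter admitted them through the same pattern. With 4 libraries such likeness is a description only.

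Ligands of the BMP, activin, and myostatin groups were examined next, and which of them these antagonists bind was not examined. Of 10 tested BMP and growth differentiation factor (GDF) ligands, 3 rose, 3 fell, and 4 did not pass. For this and the following lists, the shares over all tested genes were 35.9% called higher and 6.48% called lower. Bmp4, which shapes limb mesenchyme, fell to 9.47 and 6.41 RPKM in cKO, against 31.2 and 36.8 RPKM in WT (log2 fold change -1.99, limma adjusted p = 0.000533). Bmp5 fell to 3.53 and 2.71 RPKM in cKO, against 16.6 and 19.2 RPKM in WT (-2.20, adjusted p = 0.000225), and Gdf10, a relative of Bmp3, fell to 31.8 and 30.8 RPKM in cKO, against 136 and 171 RPKM in WT (-2.25, adjusted p = 0.000105). In the other direction, Bmp7 was at 11.2 and 8.42 RPKM in cKO, against 2.68 and 1.50 RPKM in WT (1.82, adjusted p = 0.00143), with Bmp6 (1.38, adjusted p = 0.00365) and Bmp8a (0.98, adjusted p = 0.00399) also higher. Bmp8a entered the test only through the cKO libraries. Each of these 6 ligands passed in every alternative in which it could be fitted, in the same direction. For Bmp8a this is not separate support, because of how it entered. Bmp2 was at 30.1 and 25.3 RPKM in cKO, against 22.9 and 21.5 RPKM in WT (0.31, adjusted p = 0.101).

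Of 5 tested activin and myostatin-type ligands, 2 rose and none fell. Inhba, which encodes the subunit of activin A, had the largest change among the lists of BMP and activin signaling described here. Its level was 34.2 and 44.3 RPKM in cKO, against 3.32 and 3.64 RPKM in WT, a log2 fold change of 3.16 (95% interval 2.79 to 3.53, limma adjusted p = 4.08e-05). Inhbb, which encodes the subunit of activin B, was at 2.11 and 1.66 RPKM in cKO, against 0.543 and 0.442 RPKM in WT (0.95, adjusted p = 0.00408), having entered the test only through the cKO libraries. Both passed in every alternative in which they could be fitted, which for Inhbb is not separate support because of how it entered. Mstn, the gene of myostatin, was under 1 RPKM in every library (0.865 and 0.400 RPKM in cKO, against 0.0353 and 0.0435 RPKM in WT) and was not tested.

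Summed levels of antagonists and of ligands are given as a description without a test. They are sums of the RPKM as deposited, in which the median tested gene was also higher in cKO (log2 fold change 0.27). The sums were not computed again after rescaling. The 5 antagonists Grem1, Nog, Chrd, Chrdl1, and Bmper summed to 68.9 and 64.3 RPKM in cKO, against 46.1 and 51.8 RPKM in WT, while the BMP and GDF ligands summed to 101.8 and 87.7 RPKM in cKO, against 219 and 256 RPKM in WT. The ratio within a library, which does not change when a library is rescaled as a whole, was 0.677 and 0.733 in cKO, against 0.210 and 0.202 in WT. With Fstl1 counted as a sixth BMP-binding gene, the sum of the antagonists turned to lower, at 886 and 846 RPKM in cKO, against 1296.5 and 1165 RPKM in WT, and its ratio to the ligands was 8.70 and 9.65 in cKO, against 5.92 and 4.54 in WT. Gdf10 was the main part of the ligand sum in WT, and without it the ratio of the 5 antagonists to the ligands was 0.985 and 1.13 in cKO, against 0.557 and 0.603 in WT. Fst and Fstl3 together were at 66.0 and 38.9 RPKM in cKO, against 83.4 and 73.2 RPKM in WT, and their ratio to the activin and myostatin ligands was 1.08 and 0.555 in cKO, against 3.39 and 2.63 in WT. The ratio of Fst alone to Inhba was 1.81 and 0.790 in cKO, against 23.1 and 18.3 in WT. Without Inhba, the ratio of Fst and Fstl3 to the remaining ligands was 2.43 and 1.51 in cKO, against 3.92 and 3.03 in WT. The highest of these remaining ligands was Gdf15, at 16.1 and 16.8 RPKM in cKO, against 12.8 and 15.9 RPKM in WT. The ratios to this list are therefore not ratios to activins and myostatin alone. These are ratios of transcripts and not of proteins.

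**Figure D3:**
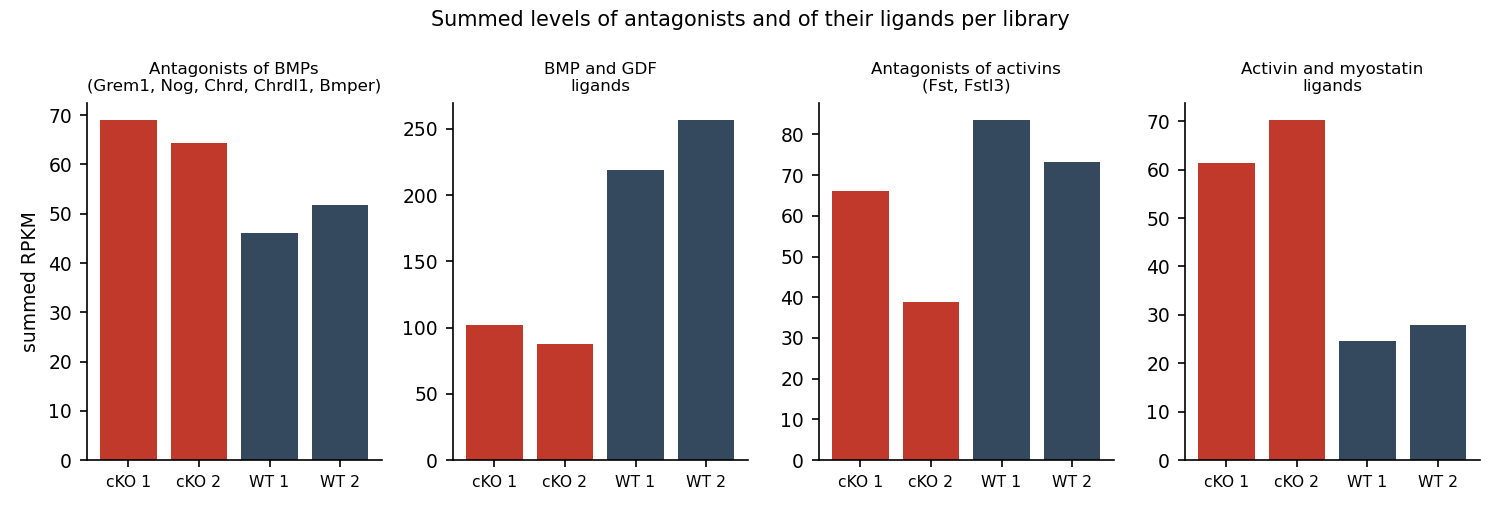
Summed RPKM per library of the BMP antagonists Grem1, Nog, Chrd, Chrdl1, and Bmper without Fstl1, the BMP and GDF ligands, the activin-binding antagonists Fst and Fstl3, and the activin and myostatin ligands, each bar being 1 library, labelled cKO (red) or WT (dark blue). Each panel has its own axis from 0, and the activin and myostatin ligands include Gdf15. In the RPKM as deposited, the 5 BMP antagonists are higher in both cKO libraries, a direction that turns when Fstl1 is added. The median tested gene is also higher in cKO in these RPKM (log2 fold change 0.27). The BMP and GDF ligands are lower, Fst with Fstl3 are lower, and the activin and myostatin ligands are higher.

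Of 10 tested receptors and coreceptors, 3 were called higher and 2 lower, beside 35.9% and 6.48% of all tested genes. Acvr1, which encodes the type I receptor ALK2, was at 40.2 and 49.1 RPKM in cKO, against 15.4 and 18.1 RPKM in WT (log2 fold change 1.36, limma adjusted p = 0.000857). Acvrl1, which encodes the type I receptor ALK1, was at 8.54 and 7.57 RPKM in cKO, against 22.7 and 25.2 RPKM in WT (-1.46, adjusted p = 0.000503), and its coreceptor gene Eng was at 29.6 and 23.8 RPKM in cKO, against 42.6 and 56.3 RPKM in WT (-0.86, adjusted p = 0.00678). These 3 passed in every alternative run. Bmpr1a (0.62, adjusted p = 0.00760) and Bmpr2 (0.43, adjusted p = 0.0248) were also higher, but neither passed under any of the 3 rescalings. Without WT replicate 1, 1 receptor was called higher.

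Among the Smads, Smad4, Smad3, and Smad2 were higher and none of the 5 tested was lower. Smad4, the partner shared by both branches, was at 25.2 and 27.5 RPKM in cKO, against 15.9 and 18.2 RPKM in WT (log2 fold change 0.60, limma adjusted p = 0.00928). Smad3 (0.36, adjusted p = 0.0375) and Smad2 (0.45, adjusted p = 0.0394), which carry activin signals, were above the median gene by 0.10 and 0.18. Under the rescalings none of the 3 passed, and Smad3 was slightly negative by quantile (-0.01) and cyclic loess normalization. Smad2 also did not pass without the filter on low values, or on leaving out any single library. Smad1 and Smad5, which carry BMP signals, had log2 fold changes of 0.25 (adjusted p = 0.171) and 0.31 (adjusted p = 0.111). Of 5 inhibitors inside the cell or in its membrane, the ubiquitin ligase genes Smurf1 (0.67, adjusted p = 0.00802) and Smurf2 (0.58, adjusted p = 0.00946) were higher, and Smad6, Smad7, and Bambi did not pass, at -0.40, -0.16, and -0.36. Under each rescaling the count was 0 higher and 3 lower. Without WT replicate 1 the counts of higher genes were 0 Smads and 1 inhibitor, and without WT replicate 2 they were 1 and 1.

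In the RPKM as deposited, genes known to respond to BMPs passed in both directions. Of 10 tested, 2 were higher, 2 were lower, and 6 did not pass. Their median log2 fold change was -0.32, or -0.59 relative to the median gene. Id1, the classic BMP target, was at 51.9 and 56.0 RPKM in cKO, against 25.9 and 41.1 RPKM in WT (0.71, limma adjusted p = 0.0265), and Atoh8 was at 4.48 and 3.63 RPKM in cKO, against 2.22 and 2.34 RPKM in WT (0.62, adjusted p = 0.0194). Id4 was at 5.29 and 5.24 RPKM in cKO, against 8.63 and 8.47 RPKM in WT (-0.61, adjusted p = 0.0113), and Msx1 was at 7.47 and 5.59 RPKM in cKO, against 9.61 and 10.1 RPKM in WT (-0.54, adjusted p = 0.0336). Id3, the most abundant of them, was at 247 and 228 RPKM in cKO, against 255 and 327 RPKM in WT (-0.28, adjusted p = 0.176). With the libraries rescaled, the counts were 0 higher and 7 lower by median ratio, 0 and 6 by quantile, and 1 and 6 by cyclic loess normalization. Without WT replicate 1 they were 0 and 0, and without WT replicate 2 they were 1 and 0, while 4 genes were lower without cKO replicate 1 and 1 without cKO replicate 2. Smad6, Smad7, and Bambi also belong to this list.

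Other secreted modulators were mostly low, and 7 of 19 could be tested. Kcp, which encodes a protein with chordin-like repeats that enhances BMP signals, was at 30.5 and 23.6 RPKM in cKO, against 42.6 and 47.0 RPKM in WT (log2 fold change -0.72, limma adjusted p = 0.00824), and it passed in every alternative run. Nbl1, an antagonist of the gremlin family, was at 199.4 and 218 RPKM in cKO, against 161 and 128 RPKM in WT (0.54, adjusted p = 0.0218), the highest level among these 19 genes. Twsg1 (0.46, adjusted p = 0.0210), a partner of chordin, and Crim1 (0.48, adjusted p = 0.0342), a membrane protein with chordin-like repeats, were higher, and Dand5 (-0.56, adjusted p = 0.0241), of the gremlin family, was lower, having entered the test only through the WT libraries. None of the 3 that rose passed under any rescaling. Without WT replicate 1 the counts were 1 higher and 1 lower, and without WT replicate 2 they were 0 higher and 1 lower, and 1 gene was lower without cKO replicate 2.

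Of 7 proteases that cut chordin or ligand precursors, 1 was higher and 1 lower. Furin, which cleaves BMP and activin precursors, was at 63.0 and 74.1 RPKM in cKO, against 45.6 and 45.1 RPKM in WT (log2 fold change 0.58, limma adjusted p = 0.00951), and did not pass under any rescaling. Tll1, which encodes a chordin-cleaving protease, was at 1.51 and 0.871 RPKM in cKO, against 3.01 and 2.62 RPKM in WT (-0.81, adjusted p = 0.0124). Furin did not pass without WT replicate 2, nor Tll1 without WT replicate 1. Bmp1, the main protease of that family by level, was at 223 and 211 RPKM in cKO, against 238 and 243 RPKM in WT (-0.15, adjusted p = 0.358).

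The SPARC family, whose members carry a follistatin-like domain as Fstl1 does, split in the same table, with 2 of 6 tested genes higher and 3 lower. Smoc1, known as a BMP antagonist in frog embryos, was at 12.6 and 15.4 RPKM in cKO, against 2.43 and 2.01 RPKM in WT (log2 fold change 2.22, limma adjusted p = 0.000225). Spock3 was at 2.41 and 1.81 RPKM in cKO, against 0.401 and 0.194 RPKM in WT (1.26, adjusted p = 0.00211), and it too entered the test only through the cKO libraries. Spock2 fell to 15.2 and 11.2 RPKM in cKO, against 35.6 and 55.5 RPKM in WT (-1.70, adjusted p = 0.00184). Smoc1, Spock2, and Spock3 passed in every alternative in which they could be fitted, which for Spock3 is not separate support because of how it entered. Sparcl1 (-0.89, adjusted p = 0.0108) and Sparc (-0.70, adjusted p = 0.0273), the most abundant of the family at 3780 and 3540 RPKM in cKO, against 6405 and 5530 RPKM in WT, were lower, and Sparc turned to 0.18 under quantile normalization. Without WT replicate 2, 1 gene of the family was called lower.

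**Figure D4:**
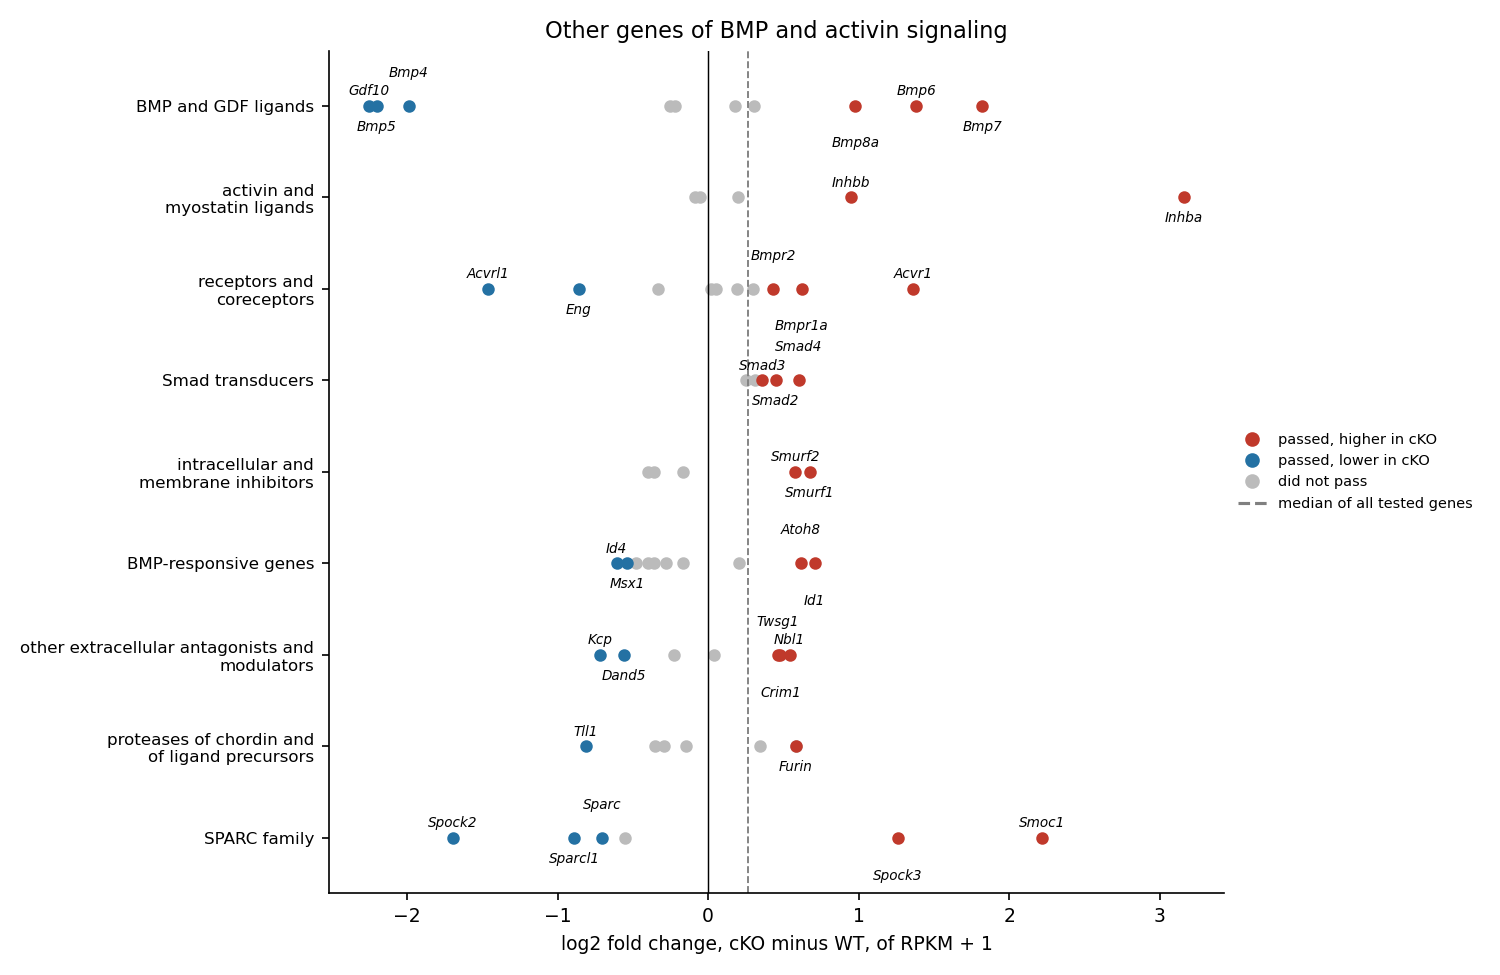
Log2 fold change (cKO minus WT, RPKM + 1) of the other tested genes of BMP and activin signaling, one row per list and one point per gene. Red and blue points passed as higher and lower, grey points did not pass, and the dashed line is the median of all tested genes, 0.27. Inhba stands farthest right at 3.16 and Gdf10 farthest left at -2.25.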

How the data were processed

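RNA-Seq was compared between 2 libraries labelled cKO and 2 labelled WT. The authors deposited RPKM values, 1 RefSeq accession per gene. Tools listed in the submitters' notes are edgeR, bedtools, and TopHat2 (version 2.0.9), and listed builds are mm10 and mm9, none with a role. Annotation, counting rule, and use of strand are not given in the sources used here. Genes without reads hold a small value above 0. All columns of samples were used.

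The comparison used limma (version 3.58.1 in R 4.3.3, with lmFit and eBayes with a trend and no covariate) on log2(RPKM + 1), restricted to genes that reached 1 RPKM in 2 or more libraries, two-sided, with Benjamini-Hochberg adjustment over all 11197 genes. P-values measure the spread between these libraries, and an exact permutation test of 2 against 2 cannot give a p under 0.333. The procedure was tested on simulated data. A first simulation recovered fewer changed genes than the limit set for it and was replaced, and in 1 of the 3 ways of drawing the spread between libraries then used, more calls fell on unchanged genes than the nominal rate, so an adjusted p near 0.05 may be too small. Members and lists were chosen with earlier results of these data known. Named were all 8 antagonists, up to 6 genes with the smallest p among those that passed in each list, defining markers, Bap1, and the 3 genes nearest to the called antagonists with the largest rise and fall. Genes named that did not pass, the named markers of removed cells, the overlapping genes Thpo and Prss57, and Mstn, as well as the sums with Fstl1 and without Gdf10 and Inhba, were chosen after their values were seen. A few results that this rule would name are not reported here. Lect1 was read under its symbol Cnmd, and Tnni2 was not analysed here. Positions are those of GENCODE for GRCm38 (the authors' build may differ), and upstream sequences from RefSeq. Alternatives were pseudocounts of 0.1 and 0.5, no filter or 5 RPKM, 3 rescalings, eBayes without trend or robust, a replicate block, leaving out each library, and a stricter limit of 1e-05. Figures were drawn with matplotlib.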

Additional observations from a re-analysis of the deposited data

How the results depend on the processing

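With 2 libraries per group, small changes could not be resolved. By the estimated depth, cKO replicate 2 and WT replicate 1 had fewer reads behind the low genes Grem1, Nog, and Fstl3. Over the log2 fold changes of the 8 antagonists at the limit of 0.05, 88 alternative values kept direction and side of the threshold, 17 lost the call, 7 gained it, and 6 changed sign. The cause of these changes was not tested.

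After rescaling by median ratio, by quantile, and by cyclic loess, 1 antagonist was called higher in each instead of 3, and over all genes 1661, 1777, and 1885 were higher and 1593, 1818, and 1710 lower. In the same order Nog was at 0.34, 0.36, and 0.41 and Chrdl1 at 0.41, 0.36, and 0.36, neither past the threshold, Fst passed at -0.93, -0.91, and -0.93, and Chrd turned to -0.20, -0.24, and -0.23. Bmper turned to -0.026 by quantile and to -0.011 by cyclic loess normalization. Without the filter on low values, Nog (0.59) and Fstl1 (-0.56) did not pass and 1 antagonist was called lower. With a filter of 5 RPKM, 1 was called higher, since Grem1 and Nog were not tested. At the limit of 1e-05, 5 of all genes were higher and 0 lower, and no antagonist passed: Grem1 (0.93), Nog (0.59), Chrdl1 (0.71), Fstl1 (-0.56), and Fstl3 (-0.60), so that 0 were called higher and 0 lower, whereas at an unadjusted limma p under 0.05 there were 3 and 3, and 4762 and 978 of all genes.

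Leaving out each library in turn, with the lone remaining library of a group assumed to vary like those of the other, gave 2 to 3 antagonists called higher and 0 to 3 lower, with 2386 to 4044 of all genes higher and 390 to 1258 lower. The log2 fold change ranged from 0.74 to 1.12 for Grem1, 0.49 to 0.69 for Nog, -0.069 to 0.28 for Chrd, which was negative without cKO replicate 1, 0.53 to 0.88 for Chrdl1, 0.081 to 0.64 for Bmper, -1.01 to -0.21 for Fst, -0.64 to -0.48 for Fstl1, and -0.64 to -0.55 for Fstl3.

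Same-numbered libraries deviated from their group means with a correlation of -0.30 over 11197 genes, so the labels' numbers are not shown to pair animals. With the number as a replicate block, 3552 genes were higher and 731 lower, Fst passed (-0.61, limma adjusted p = 0.00257), and Fstl1 did not (-0.56, adjusted p = 0.128). With the numbers crossed, a pairing added after seeing the data, 4807 genes were higher and 1088 lower.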
